A study of Mus musculus with 8 samples.

Results

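The 10 genes of the cadherin adhesion system were followed in RNA-seq of mouse embryonic fibroblasts (MEFs), fibroblasts cultured from the bodies of embryos. The members are the 10 listed genes named Cdh1, Cdh2, Cdh3, Cdh5, Cdh11, Cdh13, Ctnna1, Ctnnb1, Ctnnd1 and Jup, out of 55401 genes listed, and they were chosen by name. The study compared 4 SLMAP3-/- lines with 4 wild type (WT) lines, with 1 library per line. Each line came from a different B6C3F1 embryo taken at E14.5, head and organs removed. Both genotypes were immortalized with SV40 large T antigen, an oncoprotein that blocks p53 and Rb, so no line of either genotype is a primary culture. The knockout was global, made with a CMV-driven Cre acting on a floxed exon of Slmap, which encodes a tail-anchored membrane protein of the STRIPAK phosphatase complex.

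Classical cadherins are calcium-dependent adhesion molecules whose outer domains bind the same cadherin on a neighbouring cell. Their cytoplasmic tail binds p120-catenin close to the membrane and β-catenin or plakoglobin further along, and α-catenin links that complex to actin. Epithelial cells mainly carry E-cadherin, endothelial cells VE-cadherin, and mesenchymal cells N-cadherin and cadherin-11. β-Catenin that is not held at junctions is degraded, or enters the nucleus in Wnt signalling.

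Totals ran from 49878808 to 63322675 estimated counts per line, and levels are given as CPM, counts scaled to the library total after TMM scaling between lines. Slmap, the targeted gene, ranged from 32.7 to 44.3 CPM in SLMAP3-/- lines and from 124 to 143 CPM in WT lines (log2 fold change -1.84, SE 0.11, edgeR adjusted p = 0.00119). It was the 1 gene past an adjusted p of 0.05 among 15461 tested, which is 0.00647% of them. The fibroblast label was checked against 12 markers, and all 12 were expressed enough to be tested. Col1a1, a fibrillar collagen, had 4508 to 7010 CPM and Fn1, fibronectin, 5481 to 9234 CPM. Lum, which encodes lumican, had 0.113 to 18.5 CPM and Dcn, decorin, 0.323 to 14.8 CPM. Col1a1 was lower in SLMAP3-/- lines (edgeR log2 fold change -0.30, SE 0.13, unadjusted p = 0.0458), without passing the adjusted threshold. Pdgfra, a receptor of mesenchymal cells, had 17.4 CPM in WT replicate 1 and between 79.0 and 179 CPM in the other 7 lines. Of 14 epithelial markers, 9 stayed under 1 CPM in every line, and Krt19, a simple-epithelium keratin, had 8.02 to 43.9 CPM. Of 12 endothelial markers, 5 stayed under 1 CPM, Cldn5 was at 0 in all 8 lines, and Kdr, a VEGF receptor, had 7.87 to 28.4 CPM. Of 7 neural markers, 3 stayed under 1 CPM. Stmn2 had 13.8 to 88.6 CPM, Tubb3 8.90 to 22.2 CPM and Sox2 3.41 to 15.4 CPM. Under 1 CPM in every line were 4 of 6 immune and 6 of 7 skeletal muscle markers.

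No member differed between genotypes past the threshold. Of the 10 members, 9 passed the filter and were tested, and 0 had an adjusted p under 0.05 in edgeR, beside 0.00647% of all tested genes. The count was also 0 at an unadjusted p under 0.05, which 1.81% of tested genes passed (0.964% higher and 0.847% lower in SLMAP3-/-), and 0 in DESeq2, where 0.0325% of genes passed after adjustment, and in limma-voom. In 0 of the 9 did the lines of the genotypes separate without overlap, which they did in 1.25% of tested genes. The log2 fold change of SLMAP3-/- against WT was positive for 6 members and negative for 3, with a median of 0.077, beside a median of -0.0014 over all tested genes. Every adjusted p was 1.00 in edgeR. In simulated counts of the same design, edgeR recovered 0% of genes changed 1.5-fold, 32% of those changed 2-fold and 67.5% of those changed 4-fold. Changes of 1.5-fold were thus not detectable at the adjusted threshold for tested genes in general. For the catenin members, the 95% intervals lay within 1.5-fold of WT in both directions. They were 0.84-fold to 1.15-fold for Ctnna1, 0.834-fold to 1.37-fold for Ctnnb1, 0.853-fold to 1.3-fold for Ctnnd1 and 0.82-fold to 1.26-fold for Jup. The interval of every tested cadherin member included a 1.5-fold change, higher or lower. Since RNA came from whole cultures, fewer cells of a type and less RNA per cell cannot be told apart.

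**Figure D1:**
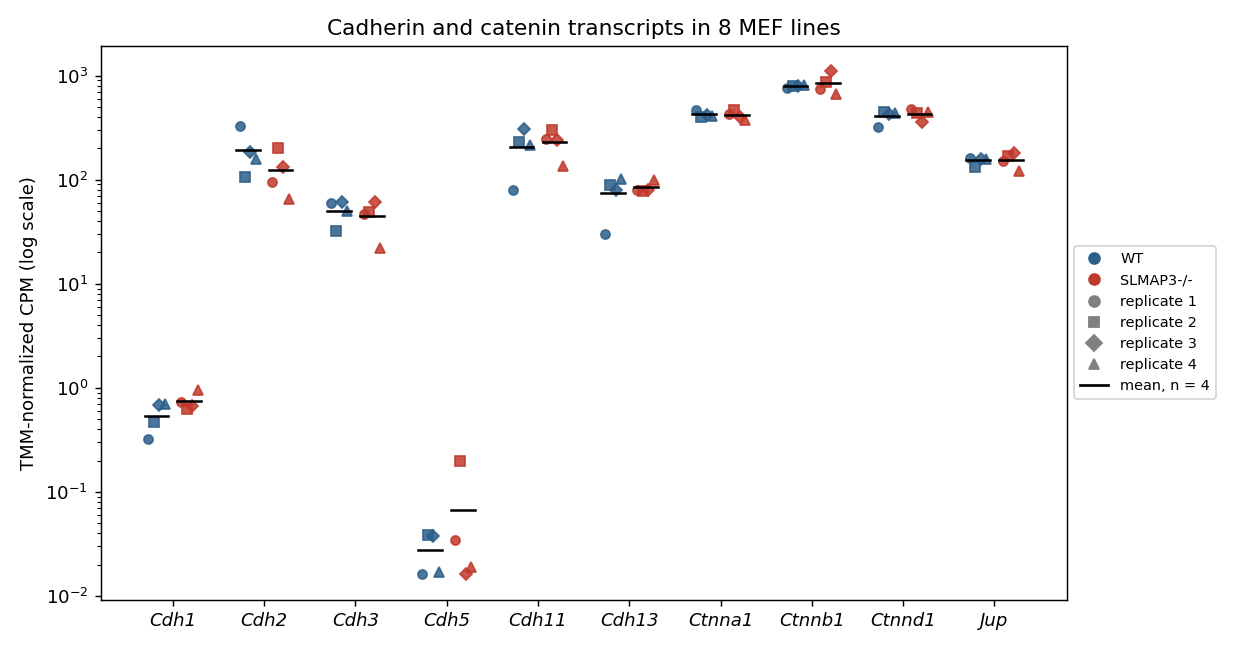
TMM-normalized CPM on a log axis for the 10 members, with 1 point per line, WT in blue, SLMAP3-/- in red, the symbol giving the replicate number and the bar the mean of 4 lines. The points of the genotypes overlap for every tested member, Cdh1 lies under 1 CPM, and Cdh5 is at a few reads.

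Among the type I members, N-cadherin, encoded by Cdh2 (chr18:16588877-16809246, GRCm38, minus strand), varied most between lines. Cdh2 had 95.5, 202, 133 and 64.6 CPM in SLMAP3-/- replicates 1 to 4, and 326, 106, 187 and 159 CPM in WT replicates 1 to 4. WT replicate 1 was the highest of all lines and SLMAP3-/- replicate 4 the lowest, 5.04-fold apart, and the lines between them were mixed by genotype. The means were 124 ± 59.2 CPM in SLMAP3-/- and 195 ± 93.7 CPM in WT lines (SD, n = 4 each). In edgeR the log2 fold change was -0.65 (SE 0.41), with a 95% interval from -1.59 to 0.29, that is from 0.331-fold to 1.22-fold of WT. The exact two-sided permutation test gave p = 0.229, where 4 lines against 4 cannot go below 0.0286. Without WT replicate 1 the log2 fold change of Cdh2 was -0.28, and without SLMAP3-/- replicate 2 it was -0.99 (edgeR unadjusted p = 0.0411, adjusted p = 0.9987).

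P-cadherin, encoded by Cdh3 (chr8:106510891-106557297, GRCm38), was the other type I cadherin at a clear level. Cdh3 had 47.1, 48.9, 60.9 and 21.8 CPM in SLMAP3-/- replicates 1 to 4, and 59.1, 32.1, 60.9 and 50.04 CPM in WT replicates 1 to 4. Replicate 4 of SLMAP3-/- and replicate 2 of WT were low, and the other 6 lines lay close together in both genotypes. The log2 fold change was -0.18 (SE 0.31, 95% interval -0.89 to 0.54, edgeR adjusted p = 1.00; exact permutation p = 0.571), and it was 0.049 without SLMAP3-/- replicate 4.

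E-cadherin, encoded by Cdh1 (chr8:106603351-106670246, GRCm38), the cadherin of epithelia, lies 46.1 kb from Cdh3 with 2 annotated genes between them. Its transcript stayed under 1 CPM in all 8 lines, with 20 to 50 counts. Cdh1 had 0.727, 0.620, 0.675 and 0.959 CPM in SLMAP3-/- replicates 1 to 4, and 0.323, 0.464, 0.681 and 0.697 CPM in WT replicates 1 to 4. The 2 lowest values were WT and the 2 highest SLMAP3-/-, with the ranges overlapping. SLMAP3-/- against WT gave a log2 fold change of 0.46 (SE 0.33, 95% interval -0.29 to 1.21, edgeR adjusted p = 1.00; exact permutation p = 0.2), and 0.28 without WT replicate 1. Per kb of longest coding transcript, Cdh3 was 23.0 to 185 times as abundant as its neighbour Cdh1 in the same line. The summed level of the epithelial markers was 15.6 to 60.6 CPM in SLMAP3-/- and 15.6 to 37.9 CPM in WT lines, and its part in the level of Cdh1 was not tested. The other listed type I cadherins were also under 1 CPM. Cdh15, the cadherin of muscle precursors, had 0.0866 to 0.723 CPM, above Cdh1 in SLMAP3-/- replicate 3 and WT replicate 1. Cdh4, retinal cadherin, had 0.0189 to 0.320 CPM.

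Cadherin-11, encoded by Cdh11 (chr8:102632095-102785642, GRCm38), is the type II cadherin of mesenchyme and had the highest CPM of the cadherin members in 7 of 8 lines. Cdh11 had 246, 299, 239 and 135 CPM in SLMAP3-/- replicates 1 to 4, and 79.5, 229, 304 and 214 CPM in WT replicates 1 to 4. WT replicate 1, the highest line for Cdh2, was the lowest for Cdh11, and SLMAP3-/- replicate 4 came next. The means were 230 ± 68.7 CPM and 207 ± 93.5 CPM (SD, n = 4 each), a log2 fold change of 0.15 (SE 0.39, 95% interval -0.73 to 1.03, edgeR adjusted p = 1.00; exact permutation p = 0.6). Without WT replicate 1 it was -0.11.

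Cdh5 (chr8:104101625-104144511, GRCm38) encodes VE-cadherin of endothelial cells and is the member that did not pass the filter. Its counts were 2, 10, 1 and 1 in SLMAP3-/- replicates 1 to 4, and 1, 2, 2 and 1 in WT replicates 1 to 4. The 10 counts in SLMAP3-/- replicate 2 stand above the other 7 lines, which lie at or under 2 counts, and no fold is given. Endothelial markers summed to 52.7 to 85.9 CPM in SLMAP3-/- and 31.7 to 89.7 CPM in WT lines, while Pecam1, which defines endothelium with Cdh5, had 0 to 0.227 CPM, and their part in the Cdh5 counts was not tested. Tek, the angiopoietin receptor, had an edgeR log2 fold change of 1.41 (SE 0.55, unadjusted p = 0.032) and Flt1, a VEGF receptor, one of -0.89 (SE 0.37, unadjusted p = 0.0439), each with an adjusted p of 1.00.

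Of 13 listed type II cadherins, Cdh5 and Cdh11 included, 4 were tested and 0 passed the threshold. Cdh24 was the steadiest, at 33.6 to 49.99 CPM, with a log2 fold change of -0.0062 (SE 0.15). Cdh18 ranged from 0.312 to 8.15 CPM and Cdh6, a cadherin of kidney and neural crest, from 0.02 to 7.81 CPM, each with high and low lines in both genotypes. Cdh10 had 2.64 CPM, 164 counts, in WT replicate 1 and at most 0.180 CPM in the other 7 lines, which made WT replicate 1 the line with high Cdh2 and Cdh10 and low Cdh11. Cdh7, Cdh8, Cdh9, Cdh12, Cdh19 and Cdh20 had at most 5 counts in any line, and Cdh22 at most 12.

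T-cadherin, encoded by Cdh13 (chr8:118283733-119324921, GRCm38), is held in the membrane by a GPI anchor and has no tail to bind catenins. Cdh13 had 79.5, 78.5, 80.2 and 98.7 CPM in SLMAP3-/- replicates 1 to 4, and 30.2, 89.1, 79.4 and 101 CPM in WT replicates 1 to 4. WT replicate 1 was low, as it was for Cdh11, and the other 7 lines spanned 78.5 to 101 CPM. For Cdh13 the log2 fold change was 0.17 (SE 0.32, 95% interval -0.55 to 0.89, edgeR adjusted p = 1.00; exact permutation p = 0.8), and -0.087 without WT replicate 1.

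**Figure D2:**
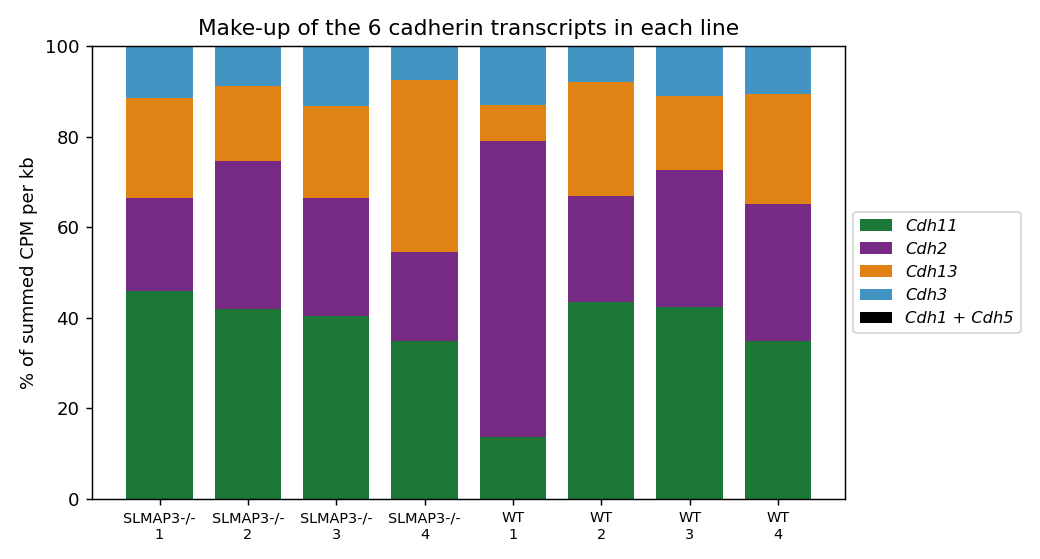
Share of each cadherin in the summed CPM per kb of the 6 cadherin members, 1 bar per line. Cdh2 takes 65.4% in WT replicate 1 and 19.5% to 32.9% in the other 7 lines, and Cdh1 with Cdh5 is too small to see.

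To compare genes with each other, CPM was divided by the length of the longest protein-coding transcript in kb. By this measure Cdh11 was above Cdh2 in 7 of 8 lines, with Cdh2 at 0.452 to 0.867 of Cdh11, and in WT replicate 1 Cdh2 was 4.78 times Cdh11. Of the summed cadherin members, Cdh2 took 20.7%, 32.9%, 26.2% and 19.5% in SLMAP3-/- replicates 1 to 4, and 65.4%, 23.5%, 30.2% and 30.2% in WT replicates 1 to 4. Cdh11 took 45.8%, 41.8%, 40.3% and 34.9% in SLMAP3-/- replicates 1 to 4, and 13.7%, 43.4%, 42.3% and 34.8% in WT replicates 1 to 4. Cdh13 took 7.76% in WT replicate 1 and 16.4% to 38.1% in the other 7 lines, highest in SLMAP3-/- replicate 4, and Cdh3 took 7.27% to 13.2%. The sum itself ran from 68.5 CPM per kb in SLMAP3-/- replicate 4 to 127 CPM per kb in SLMAP3-/- replicate 2 and WT replicate 3. WT replicate 1, with 103 CPM per kb, lay in the middle of that range. Of the 12 fibroblast markers, WT replicate 1 was lowest for 4 (Pdgfra, Dcn, Lum and Postn) and highest for 1 (Col5a1), while SLMAP3-/- replicate 4 was also lowest for 4, and their part in the cadherin make-up was not tested.

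Over the 8 lines the 4 catenin members spanned narrower ranges than the 5 tested cadherin members. Ctnnb1 (chr9:120929216-120960507, GRCm38, plus strand) encodes β-catenin, which joins the cadherin tail to α-catenin and is the coactivator of Wnt target genes. Ctnnb1 had 736, 867, 1106 and 662 CPM in SLMAP3-/- replicates 1 to 4, and 769, 790, 795 and 805 CPM in WT replicates 1 to 4. The 4 WT lines lay together and the SLMAP3-/- lines lay on both sides of them, with an SD of 195 CPM against 15.2 CPM. That difference in spread was not tested. The log2 fold change was 0.094 (SE 0.16, 95% interval -0.26 to 0.45, edgeR adjusted p = 1.00; exact permutation p = 0.743), and -0.065 without SLMAP3-/- replicate 3, the highest line.

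Jup (chr11:100368958-100397763, GRCm38, minus strand) encodes plakoglobin, the close relative of β-catenin that can take its place on the cadherin tail and also serves desmosomes. Jup had 150.5, 170, 181 and 121 CPM in SLMAP3-/- replicates 1 to 4, and 162, 133, 160 and 158 CPM in WT replicates 1 to 4. As for Ctnnb1, SLMAP3-/- replicate 3 was highest and SLMAP3-/- replicate 4 lowest. For Jup the log2 fold change was 0.024 (SE 0.14, 95% interval -0.29 to 0.33, edgeR adjusted p = 1.00; exact permutation p = 0.943). Per kb, Ctnnb1 was 4.21 to 5.40 times Jup in the same line.

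Promoter sequences, 300 bases around each start, were at hand in RefSeq for 3 of the 10 members, Ctnnb1, Ctnnd1 and Jup, on the GRCm38.p6 assembly. No entry matched Cdh1, Cdh2, Cdh3, Cdh5, Cdh11, Cdh13 or Ctnna1. The promoters of Ctnnb1 at chr9:120933150-120933449 (plus strand) and of Jup at chr11:100397741-100398040 (minus strand) are shown since these relatives shared their highest and lowest line. Both of those are SLMAP3-/- lines, and a link between these sequences and the levels was not tested. Capitals mark the GC box letters GGGCGG or, on the other strand, CCGCCC.
Ctnnb1: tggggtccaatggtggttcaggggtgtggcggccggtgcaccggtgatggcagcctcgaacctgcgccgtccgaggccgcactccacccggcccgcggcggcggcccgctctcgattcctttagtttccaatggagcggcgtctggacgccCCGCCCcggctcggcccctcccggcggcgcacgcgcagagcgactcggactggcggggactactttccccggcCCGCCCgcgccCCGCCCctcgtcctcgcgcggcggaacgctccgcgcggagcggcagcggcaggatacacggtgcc
Jup: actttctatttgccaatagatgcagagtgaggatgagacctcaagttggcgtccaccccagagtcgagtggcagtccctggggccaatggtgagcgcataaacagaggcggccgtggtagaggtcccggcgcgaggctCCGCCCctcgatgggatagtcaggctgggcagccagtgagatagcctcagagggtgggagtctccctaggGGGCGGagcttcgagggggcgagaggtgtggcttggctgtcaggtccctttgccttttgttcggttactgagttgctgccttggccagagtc
The Ctnnb1 promoter held 3 such matches at 75.3% GC and the Jup promoter 2 at 60.7% GC, where 35.7% of 32851 promoters of this length hold at least 1 match and the median is 52.7% GC. The E-box letters CACCTG or CAGGTG, which occur in 20.2% of promoters, were in neither window. The 2 Ctnnd1 windows held neither motif.

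Ctnna1 (chr18:35118859-35254779, GRCm38) encodes αE-catenin, the link to actin, and was the steadiest member. Ctnna1 had 427, 464, 397 and 377 CPM in SLMAP3-/- replicates 1 to 4, and 467, 405, 418 and 408 CPM in WT replicates 1 to 4. All 8 lines lay within 1.24-fold of each other, with the highest a WT line and the lowest an SLMAP3-/- line. For Ctnna1 the log2 fold change was -0.028 (SE 0.098, edgeR adjusted p = 1.00; exact permutation p = 0.714), and the 95% interval, -0.25 to 0.20, spans 0.840-fold to 1.15-fold of WT.

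Ctnnd1 (chr2:84600071-84650765, GRCm38) encodes p120-catenin, which binds near the membrane and holds cadherins at the cell surface. Ctnnd1 had 483, 434, 362 and 445 CPM in SLMAP3-/- replicates 1 to 4, and 324, 447, 426 and 438 CPM in WT replicates 1 to 4. WT replicate 1 was lowest, followed by SLMAP3-/- replicate 3, the line with the most Ctnnb1. For Ctnnd1 the log2 fold change was 0.077 (SE 0.13, 95% interval -0.23 to 0.38, edgeR adjusted p = 1.00; exact permutation p = 0.571), and -0.014 without WT replicate 1.

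**Figure D3:**
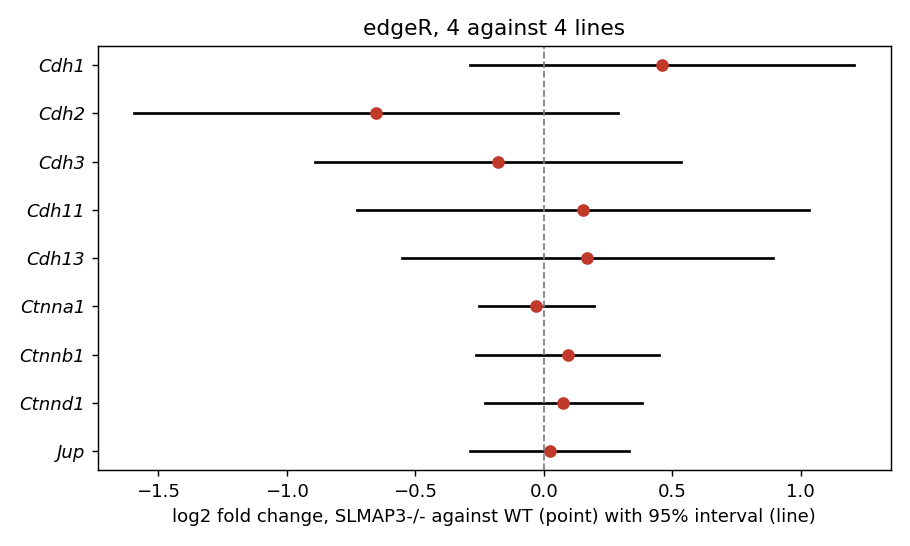
Fitted log2 fold change of SLMAP3-/- against WT for the 9 tested members (points) with 95% intervals (lines), from edgeR with 4 lines a genotype. Every interval holds 0, and those of the 4 catenins are narrower than those of the 5 cadherins.

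Ordered by median CPM per kb over the 8 lines, the members ran Ctnnb1 (219), Ctnna1 (111), Ctnnd1 (68.5), Jup (49.6), Cdh11 (41.5), Cdh2 (30.2), Cdh13 (21.1), Cdh3 (11.3), Cdh1 (0.153) and Cdh5 (0.00673). Ctnnb1 lay above Ctnna1, Ctnna1 above Ctnnd1, Cdh3 above Cdh1 and Cdh1 above Cdh5 in 8 of 8 lines with no overlap of their ranges. The ranges of the other neighbours in the order overlapped, and Cdh2 was above Cdh13 in 5 of 8 lines. The 4 catenins summed to 3.53 to 5.71 times the 6 cadherins. With the union of all exons as the length, Jup fell behind Cdh11 and Cdh13 behind Cdh3, and the ranges of Ctnna1 (58.7 to 72.7 CPM per kb) and Ctnnd1 (44.3 to 65.9 CPM per kb) overlapped.

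Between lines of the same genotype the cadherin members varied more than the catenin members, in part through 1 line. Pooled within genotypes, the SD of log2 CPM was 0.692 for Cdh11, 0.684 for Cdh2, 0.572 for Cdh13, 0.547 for Cdh3 and 0.392 for Cdh1. For the catenins it was 0.229 for Ctnnb1, 0.205 for Jup, 0.196 for Ctnnd1 and 0.114 for Ctnna1. Each of the 5 tested cadherin members was above the median of all tested genes, 0.275, and each of the 4 catenin members below it. That median covers genes at all levels, and the catenin members had higher levels than most cadherin members, which was not adjusted for. Cdh1, at 20 to 50 counts, also carries counting error in its SD. For Cdh13 this rested on WT replicate 1: without that line its SD was 0.163, beside a median of 0.26 over all tested genes and 0.102 to 0.25 for the catenin members, while Cdh1, Cdh2, Cdh3 and Cdh11 stayed at 0.281 to 0.603. Of the other tested cadherins, Cdh15 (SD 0.855), Cdh18 (1.78) and Cdh6 (2.41) were also above that median. These reached at most 0.723, 8.15 and 7.81 CPM. The type II cadherin Cdh24, with an SD of 0.222, lay below the median, unlike the cadherin members. Ctnnd2, the δ-catenin of neurons, had 0.993, unlike the catenin members. Cdh11 and Cdh2 stood at the 82.3 and 81.9 percentiles of tested genes and Ctnna1 at the 10.3 percentile. The 1.24-fold range of Ctnna1 compares with 5.04-fold for Cdh2, 3.82-fold for Cdh11, 3.33-fold for Cdh13, 2.79-fold for Cdh3, 1.67-fold for Ctnnb1, 1.5-fold for Jup and 1.49-fold for Ctnnd1.

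**Figure D4:**
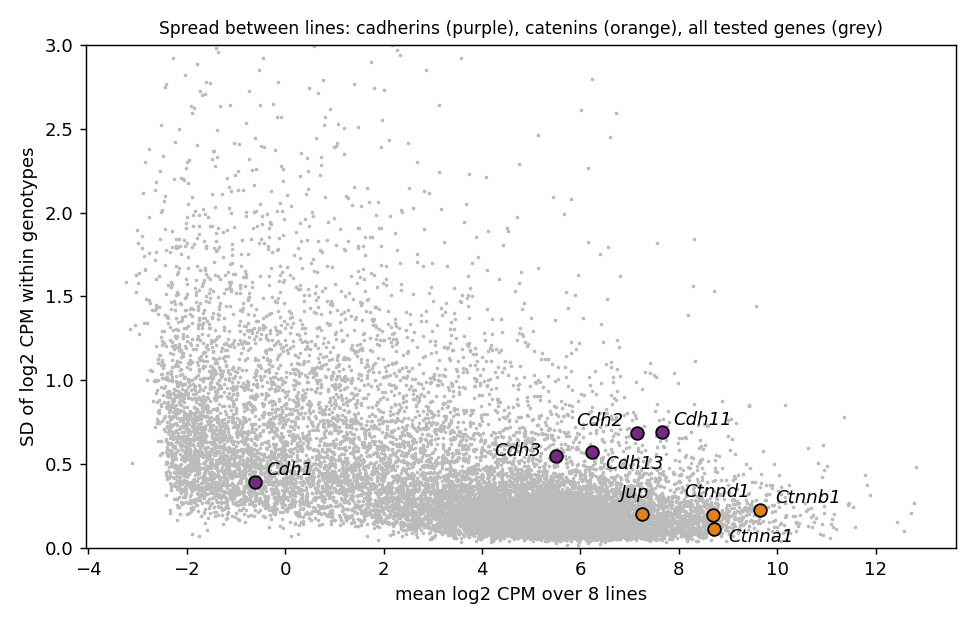
SD of log2 CPM within genotypes against mean log2 CPM over 8 lines, with tested cadherins in purple, catenins in orange and all other tested genes in grey (47 genes lie above the axis limit). Cdh2, Cdh3, Cdh11 and Cdh13 sit at 0.547 to 0.692 and the catenins at 0.114 to 0.229, on either side of the median of 0.275 over all tested genes, with Cdh13 at 0.163 without WT replicate 1.

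Whether members vary together was examined over the 36 pairs of tested members, in log2 CPM over 8 lines. No pair passed Benjamini-Hochberg adjustment over the 36, by Pearson's r or by Spearman's rho, and 7 had an unadjusted exact permutation p under 0.05 for r. The strongest was Cdh3 with Jup (r = 0.927, exact permutation p = 0.0059, adjusted p = 0.121; rho = 0.833, exact permutation p = 0.0154, adjusted p = 0.201). Taken from the genotype means it was 0.961, and without SLMAP3-/- replicate 4 and WT replicate 2, the lines farthest from the median, 0.483 over a narrower range, so the relation rests in part on these lines, while leaving out single lines gave 0.837 to 0.952. The relatives Ctnnb1 and Jup gave r = 0.795 (exact permutation p = 0.0067, adjusted p = 0.121; rho = 0.786, exact permutation p = 0.0279, adjusted p = 0.201), and r = 0.441 without SLMAP3-/- replicates 3 and 4. Their r was 0.909 within the SLMAP3-/- lines and -0.112 within the WT lines.

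Cdh2 and Ctnna1 gave r = 0.81 (exact permutation p = 0.0148, adjusted p = 0.133; rho = 0.738, exact permutation p = 0.0458, adjusted p = 0.236), and r = 0.45 without SLMAP3-/- replicate 4 and WT replicate 1. Cdh13 and Ctnna1 ran opposite ways (r = -0.703, exact permutation p = 0.0134, adjusted p = 0.133; rho = -0.81, exact permutation p = 0.0218, adjusted p = 0.201), and without WT replicates 1 and 4 r was -0.747. Over all lines the mesenchymal cadherins Cdh2 and Cdh11 had r = -0.205 (exact permutation p = 0.607, adjusted p = 0.683; rho = 0.0952, exact permutation p = 0.84, adjusted p = 0.889), and r = 0.61 without SLMAP3-/- replicate 4 and WT replicate 1. WT replicate 1 alone set that sign: without it r was 0.842, and for Cdh11 with Cdh13 r went from 0.689 (exact permutation p = 0.247, adjusted p = 0.423; rho = -0.286, exact permutation p = 0.501, adjusted p = 0.644) to -0.788.

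**Figure D5:**
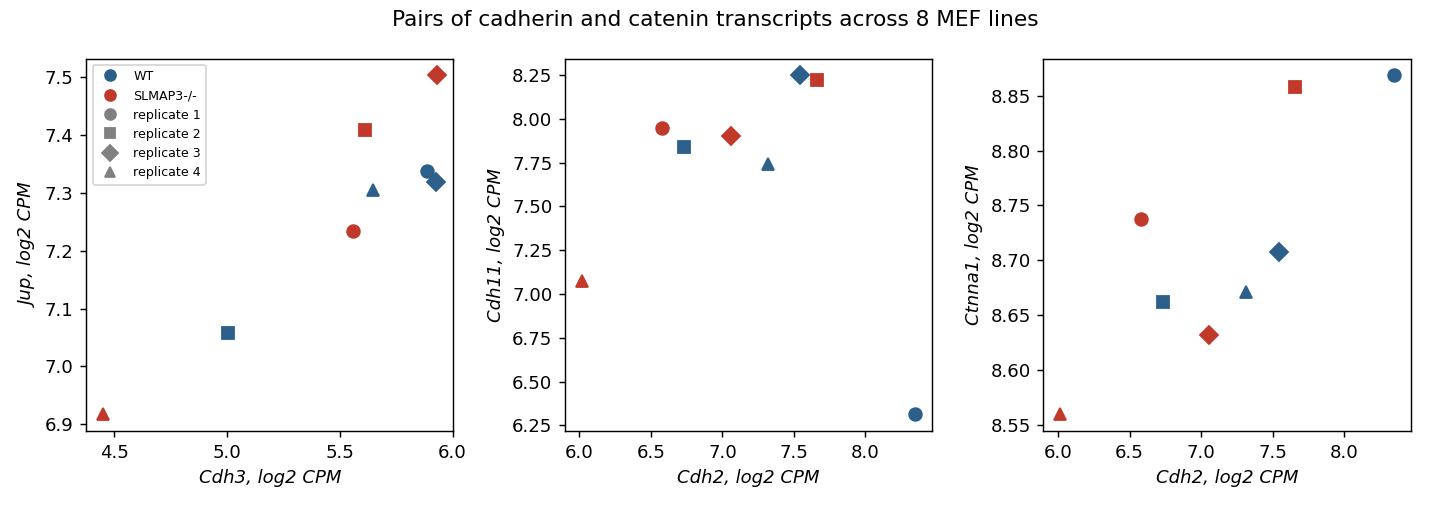
Log2 CPM of Jup against Cdh3, Cdh11 against Cdh2 and Ctnna1 against Cdh2, 1 point per line, WT blue and SLMAP3-/- red, with the symbol giving the replicate number. SLMAP3-/- replicate 4 and WT replicate 2 form the low end for Cdh3 and Jup, and WT replicate 1 stands alone with high Cdh2 and low Cdh11.

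The genes whose pattern over the 8 lines was most like each member are given as a description, chosen as the highest r out of all tested genes. For Cdh2 they were Prrg4 (r = 0.947), Dapk2 (0.943) and Ccdc88c (0.93), and for Cdh11 Ranbp17 (0.984), Dusp23 (0.976) and Cdc42ep5 (0.971). Cdh13 was most like Lama4 (0.973), a laminin chain, then Hspb6 (0.967) and Klf2 (0.966). For Cdh3 they were Ago1 (0.978), Pms1 (0.973) and Rnf115 (0.965), and for Cdh1, at its low counts, Gm43302 (0.98), Cox20 (0.974) and Tnfaip8l1 (0.969). The catenins gave Ccdc149 (0.966), Paox (0.953) and Adcy4 (0.95) for Ctnnb1, Qdpr (0.989), Pepd (0.967) and Ap3b1 (0.96) for Jup, Cdc42ep2 (0.962) and Sox6 (0.956) after Gm15912 (0.968) for Ctnnd1, and Gm5124 (0.973), Psmd10 (0.942) and 8430423G03Rik (0.939) for Ctnna1.

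The partners of the members were listed by role, and 0 genes passed the threshold in either direction in every list. Of 16 nectins and junction linkers, all tested, 11 were positive and 5 negative in log2 fold change, with a median of 0.069. The most abundant were the actin crosslinkers Actn4 (854 to 1347 CPM) and Actn1 (710 to 1279 CPM) and vinculin, Vcl (657 to 1247 CPM), which binds stretched α-catenin. Of 10 other catenins and armadillo proteins 8 were tested, with a median of -0.099, led by Pkp4, a p120 relative (47.0 to 77.7 CPM), Ctnnal1 (44.6 to 83.6 CPM) and Ctnnbip1, an inhibitor of β-catenin (31.2 to 59.5 CPM). The α-catenins of neurons and heart, Ctnna2 and Ctnna3, had at most 0.0850 CPM and 0.173 CPM, beside at least 377 CPM for Ctnna1. All 5 tested desmosome genes of 9 listed had negative values, with a median of -0.46, and the most abundant were Dsp (8.02 to 53.3 CPM), Pkp2 (9.30 to 22.1 CPM) and Perp (6.62 to 19.1 CPM). WT replicate 4 decided this for Dsp and Perp: their SLMAP3-/- means of 13.6 and 10.995 CPM lay under the WT means of 21.8 and 11.3 CPM, and above those without that line, 11.3 and 8.76 CPM. Jup, at 0.024, is counted with the members.

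Of 9 genes of cadherin shedding and turnover, all tested, 2 were positive and 7 negative, with a median of -0.063. Mmp14, a membrane metalloproteinase, had 420 to 696 CPM, Adam10, the sheddase of several cadherins, 193 to 242 CPM, and Ptprk, a phosphatase of junctions, 91.1 to 155 CPM. The 9 genes of the β-catenin destruction complex had a median of -0.032, with Csnk1a1 at 330 to 430 CPM, Gsk3b at 145 to 164 CPM and Apc, the scaffold, at 138 to 197 CPM. The 8 TCF/LEF factors and coactivators had a median of 0.061, and of those Bcl9l had 194 to 275 CPM, Pygo2 77.7 to 95.3 CPM and Bcl9 54.3 to 87.1 CPM.

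Of 11 genes that respond to β-catenin in many tissues, 10 were tested and 0 passed, 7 positive and 3 negative, with a median of 0.041. Ccnd1, cyclin D1, had 153, 135, 65.4 and 21.0 CPM in SLMAP3-/- replicates 1 to 4, and 104, 169, 207 and 106 CPM in WT replicates 1 to 4. SLMAP3-/- replicate 4, the lowest line for Ctnnb1, was lowest for Ccnd1, and SLMAP3-/- replicate 3, the highest for Ctnnb1, was the next lowest. A relation of Ccnd1 to Ctnnb1 was not tested. Nkd2, a Wnt feedback inhibitor, had 2.92 to 34.7 CPM and Znrf3, a ligase for Wnt receptors, 12.5 to 17.8 CPM. Of 10 transcription factors of epithelial-mesenchymal transition, which include repressors of Cdh1, all were tested, 5 positive and 5 negative. Twist2 was the 1 factor with an unadjusted p under 0.05 in edgeR (log2 fold change 0.34, SE 0.14, unadjusted p = 0.0356, adjusted p = 1.00). Prrx1 had 417 to 972 CPM, Tcf4 189 to 399 CPM and Tcf3 161 to 205 CPM.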

How the data were processed

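The authors assigned reads to the GENCODE M25 transcriptome of GRCm38 with Salmon and deposited estimated counts per gene, which carry a length scaling and no scaling between libraries. The authors' deposited DESeq2 table, with log2 fold changes and p-values, was not used. The versions of Salmon and DESeq2 they ran and the use of strand in counting are not given in the sources used here. The libraries were made with a stranded mRNA kit. If counting ignored strand, Cdh2, Cdh5, Cdh13, Ctnna1 and Ctnnb1, which overlap genes on the other strand, may share reads with them. Cdh11, Cdh13, Ctnnb1 and Ctnnd1 overlap genes on their own strand, for Ctnnd1 a protein-coding one, and may share reads with those in either case. The pairing of replicate numbers was checked and not found.

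Estimated counts were rounded and fitted with edgeR 4.0.16 in R 4.3.3 (filterByExpr with a minimum count of 10, TMM, glmQLFit and glmQLFTest, SLMAP3-/- against WT, no covariates), and p-values were adjusted by Benjamini-Hochberg across tested genes. DESeq2 1.42.0 and limma-voom 3.58.1 were alternatives, beside other filters, scaling, a replicate block and leaving out each line. Permutation tests (scipy 1.17.1) were exact and two-sided, on log2 CPM with prior count 2. Each test was checked on simulated data. P-values measure the spread between these lines, 1 library each, and counting error is small beside it except for Cdh1 and Cdh5.

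Positions and transcript lengths come from GENCODE M21, on the same build. The mean over protein-coding transcripts, planned as the length, is shortened by partial transcripts (364 bases at the shortest for Ctnnb1), so the longest coding transcript was used, a choice made after seeing the data. Names follow a rule: all members, Slmap, listed cadherins, in each list the 3 genes of highest mean CPM and those with an unadjusted p under 0.05, and the 3 genes most like each member. Pdgfra, Lum, Dcn, Postn, Col5a1, Pecam1, Ctnna2, Ctnna3 and Ctnnd2 were added after their values were seen, as were the spreads and the desmosome means without single lines. Members and lists were chosen with earlier results of these data known.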

Additional observations from a re-analysis of the deposited data

Results flagged for a closer look

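In groups of 4 lines, a line was marked where its gap to the nearest other line relative to the group's range exceeded Dixon's 95% critical value. This marked 15 of 118 groups. About 5.9 would be marked by chance if the values were normally distributed and independent. CPM was used here without a log transform, and some groups hold few counts, so the excess is not read as a result. Of the members, Cdh13 was highest in SLMAP3-/- replicate 4 at 98.7 CPM, with the other SLMAP3-/- lines at 78.5 to 80.2 CPM. Jup was lowest in WT replicate 2 at 133 CPM, with the others at 158 to 162 CPM. Cdh5 was highest in SLMAP3-/- replicate 2 at 0.2 CPM, 10 counts.

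Other cadherins stood apart in single lines: Cdh6 at 2.78 CPM in SLMAP3-/- replicate 3 and 7.81 CPM in WT replicate 3, Cdh10 at 2.64 CPM in WT replicate 1, and Cdh22 at 0.23 CPM, 12 counts, in SLMAP3-/- replicate 4. Among junction genes Ctnnal1 had 83.6 CPM in SLMAP3-/- replicate 1 and Vcl 1247 CPM in WT replicate 2. Actn4 had 875 CPM in SLMAP3-/- replicate 3, the lowest of its genotype, and 1347 CPM in WT replicate 2, the highest. The desmosome genes Dsp (53.3 CPM) and Perp (19.1 CPM) were both highest in WT replicate 4. SLMAP3-/- replicate 2 had the most Krt19 (43.9 CPM) and Pax3 (4.78 CPM), and was the line with 10 counts of Cdh5.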

How the results depend on the processing

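The count of members past the threshold was 0 in edgeR and in every alternative, and leaving out each line gave 0 to 0. Over all genes the count was 1 in edgeR and 1 to 1 with each line left out, 11 with DESeq2 and 0 with the replicate block, where Slmap kept its log2 fold change of -1.84 with an adjusted p of 0.171. Lines with the same replicate number did not deviate together (r from -0.157 to 0.187), so pairing by these numbers was not found. SLMAP3-/- replicate 3 and WT replicate 4 share the number 10 in their names, and its meaning is not given. A fit paired by that number was not run. The highest r of SLMAP3-/- replicate 3 with any WT line was 0.187, with WT replicate 3. Of 210 recomputed log2 fold changes 10 changed sign, each where 1 line was left out: Cdh3 was 0.05 without SLMAP3-/- replicate 4, Cdh11 was -0.11, Cdh13 was -0.087 and Ctnnd1 was -0.014 without WT replicate 1, Ctnna1 was 0.016 without SLMAP3-/- replicate 4 and 0.025 without WT replicate 1, Ctnnb1 was -0.065 without SLMAP3-/- replicate 3, and Jup was -0.017 and -0.058 without SLMAP3-/- replicates 2 and 3 and -0.038 without WT replicate 2. The cause was not tested. The log2 fold changes ran, with each line left out, from 0.28 to 0.61 for Cdh1, -0.99 to -0.28 for Cdh2, -0.36 to 0.049 for Cdh3, -0.11 to 0.40 for Cdh11, -0.087 to 0.35 for Cdh13, -0.081 to 0.025 for Ctnna1, -0.065 to 0.19 for Ctnnb1, -0.014 to 0.15 for Ctnnd1 and -0.058 to 0.13 for Jup. With each line left out, r ran from 0.837 to 0.952 for Cdh3 with Jup, 0.695 to 0.854 for Ctnnb1 with Jup and -0.884 to -0.427 for Cdh1 with Cdh2, and each pair had an adjusted p of 0.0429 in 1 of those settings, without SLMAP3-/- replicate 2 for the first and without WT replicate 2 for the others. With all lines Cdh1 and Cdh2 had r = -0.721 (exact permutation p = 0.0452, adjusted p = 0.228). The range was -0.605 to 0.842 for Cdh2 with Cdh11 and -0.788 to 0.884 for Cdh11 with Cdh13. With mean transcript lengths the catenins were 7.30 to 11.9 times the cadherins and Ctnnb1 9.08 to 11.6 times Jup, with the union of exons 3.84 to 7.15 and 5.90 to 7.56 times, and of 20 levels per kb 9 moved by more than their SD.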
